A study of Mus musculus with 10 samples.

Results

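Of the 15341 genes in the count table, 9 are described here: the 4 protease-activated receptor genes F2r, F2rl1, F2rl2 and F2rl3, and 5 genes that control blood clotting, Thbd, Procr, Tfpi, F3 and Vwf. They were chosen by name, with earlier results of these data known, and all 9 were found in the table. RNA sequencing was done on the hearts of 10 male mice. The 5 plasma S1Pless animals had the genotype Sphk1f/-:Sphk2f/-:Mx1Cre+ and their 5 littermate controls Sphk1f/-:Sphk2f/-:Mx1Cre-. Both groups therefore carried a floxed and a null allele of each sphingosine kinase gene, and the groups differed in Mx1-Cre, a recombinase driven by an interferon-inducible promoter and used chiefly for blood-forming cells. The sources used here do not give the animals' ages or how the recombinase was induced. Sphingosine 1-phosphate (S1P) is a lipid messenger that the kinases make and that blood carries to the vessel wall.

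Thrombin, the last protease of the clotting cascade, also acts on cells. It cuts the outer end of a protease-activated receptor, and the new end folds back and switches the receptor on. F2r encodes PAR1, the main thrombin receptor of vessel wall cells, F2rl1 encodes PAR2, which trypsin-like proteases and clotting factors other than thrombin cut, F2rl2 encodes PAR3 and F2rl3 encodes PAR4, and mouse platelets sense thrombin through PAR3 and PAR4 rather than PAR1. On endothelium, thrombomodulin (Thbd) binds thrombin and turns it towards activating protein C, which the endothelial protein C receptor (Procr) presents and which can itself cut PAR1. Tissue factor (F3) starts clotting, tissue factor pathway inhibitor (Tfpi) holds that step back, and von Willebrand factor (Vwf) tethers platelets. In cultured endothelial cells, signalling by activated protein C through PAR1 has been tied to sphingosine kinase and to S1P receptors.

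Among the receptor genes, F2r and F2rl3 rose in S1Pless hearts, F2r 1.51-fold and F2rl3 3.42-fold. Thbd, Procr, Tfpi, F3 and Vwf did not pass the test, and for Thbd, Tfpi, F3 and Vwf the 95% intervals of the fold lay between 0.805 and 1.25. By edgeR's quasi-likelihood test, 8 members could be tested, of which 2 were called higher and 0 lower; a call is a Benjamini-Hochberg adjusted p under 0.05 over all 12992 genes tested. Among all of those genes 3.72% were called, 3.4% as higher and 0.316% as lower. At an unadjusted p below 0.05, 3 members were higher and 0 lower, beside 13% and 6.82% of all genes. DESeq2 called 3 members higher and 0 lower, beside 5.88% and 2.03% of all genes, and limma-voom 3 higher and 0 lower, beside 3.98% and 0.439%. F2rl2 lay below the filter on low counts.

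The libraries held 16354071 to 20832566 counts in S1Pless hearts and 17204491 to 20202283 in control hearts. CPM below are counts scaled to a common library size with TMM factors, and 1 read was worth 0.0451 to 0.058 CPM in S1Pless hearts and 0.0532 to 0.0658 CPM in control hearts. The TMM factors averaged 1.05 ± 0.0328 in S1Pless hearts and 0.955 ± 0.0478 in control hearts (SD, n = 5 each; two-sided exact permutation p = 0.0159, or 0.0476 after adjustment over 3 measures of the libraries). The targeted genes did not pass the test: Sphk1 had 0.723 ± 0.213 CPM in S1Pless hearts and 1.21 ± 0.357 CPM in control hearts, and Sphk2 had 16.8 ± 1.94 CPM in S1Pless hearts and 20.2 ± 2.3 CPM in control hearts (edgeR adjusted p = 0.168 and 0.18). Both genes overlapped between the groups. Their log2 fold changes were -0.74 for Sphk1 and -0.27 for Sphk2 (edgeR unadjusted p = 0.0208 and 0.0241). At an unadjusted p below 0.05, 6.82% of all genes were lower. Whole-gene counts pool all alleles and all heart cells, which limits what they say about the labels. All 6 cardiomyocyte markers were present, at a summed 37900 to 46000 CPM in S1Pless hearts and 45800 to 50800 CPM in control hearts. All 6 had log2 fold changes below 0, with a median of -0.18, and none passed in edgeR (1 lower at an unadjusted p below 0.05) or limma-voom. DESeq2 called 1 lower, Pln, a regulator of the calcium pump, which had 5130 ± 227 CPM in S1Pless hearts and 6340 ± 376 CPM in control hearts without overlap (SD, n = 5 each; edgeR adjusted p = 0.089). All 13 endothelial markers were tested, with sums of 1750 to 2080 CPM in S1Pless hearts and 1730 to 1960 CPM in control hearts.

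**Figure D1:**
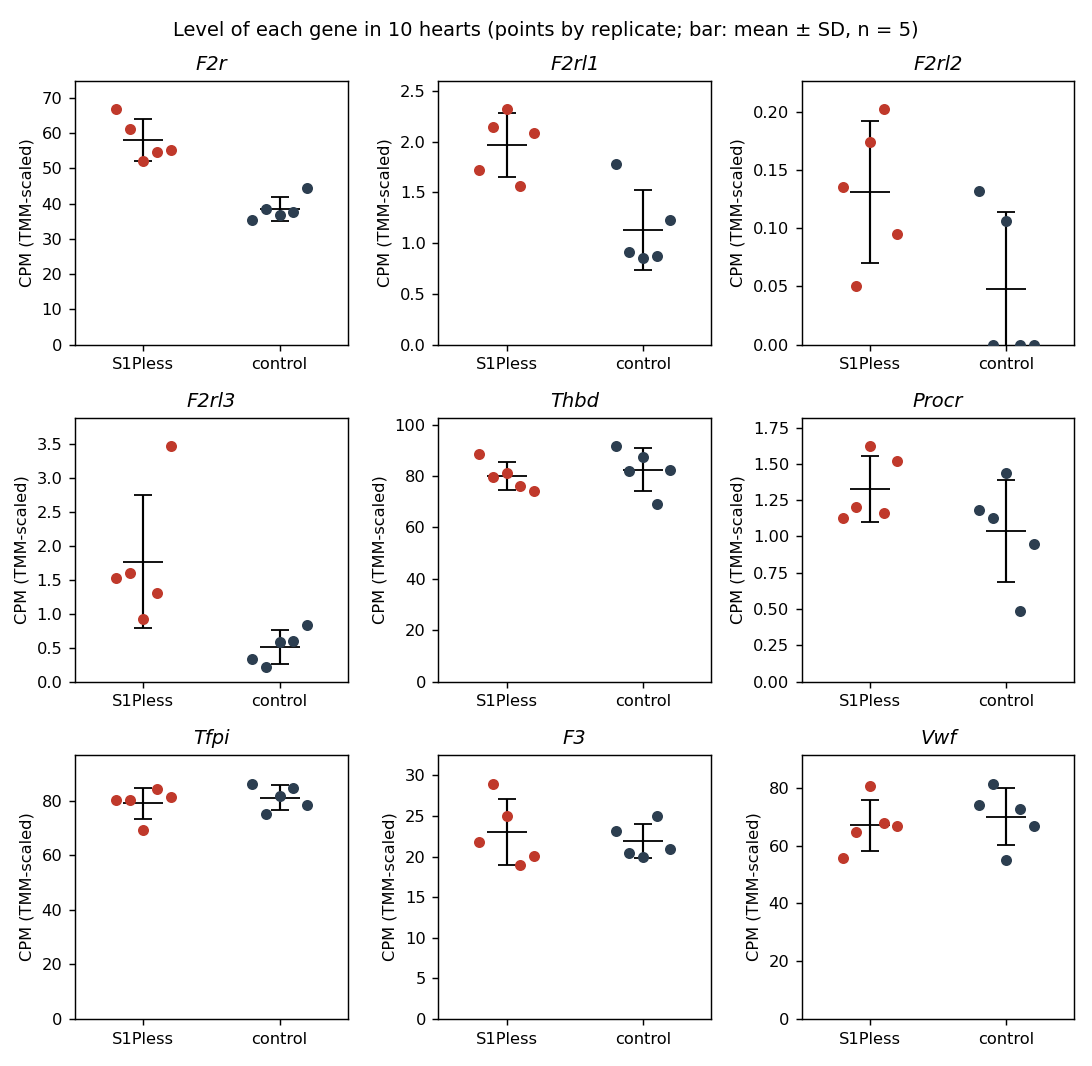
Level of each of the 9 genes in CPM (vertical axis, from 0, its own scale in each panel) in 5 S1Pless and 5 control hearts; points are hearts in order of replicate number, and bars are the mean with the SD. All S1Pless hearts lie above all control hearts for F2r and F2rl3, while the groups overlap in the other 7 genes.

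F2r (ENSMUSG00000048376) had 66.8, 61.3, 52.2, 54.6 and 55.2 CPM in S1Pless replicates 1 to 5, against 35.3, 38.4, 36.7, 37.7 and 44.4 CPM in control replicates 1 to 5. The lowest S1Pless heart, replicate 3, lay above the highest control heart, replicate 5, so the groups did not overlap. Among all genes tested, 4.53% had every S1Pless heart above every control heart and 1.82% had every one below. The values came from 900 to 1479 reads per S1Pless library and 537 to 795 per control library. F2r averaged 58 ± 5.92 CPM in S1Pless hearts and 38.5 ± 3.49 CPM in control hearts (SD, n = 5 each), a log2 fold change of 0.59 ± 0.09 (SE) with an edgeR adjusted p of 0.00776. It ranked 27th by p among the 12992 genes. The call held whichever heart was left out, with adjusted p-values from 0.00809 to 0.0327, and in 19 of the 20 alternative settings tried. The exception was a scaling in which each library was set by its endothelial markers in place of TMM factors: the log2 fold change of F2r was then 0.46 (adjusted p = 0.0508), in a range of 3.36e-06 to 0.0508 over the alternatives. In whole heart RNA a larger number of cells that express a gene cannot be told apart from more RNA per cell.

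F2rl3 (ENSMUSG00000050147) had 1.53, 1.6, 0.929, 1.31 and 3.46 CPM in S1Pless replicates 1 to 5, against 0.329, 0.215, 0.586, 0.599 and 0.838 CPM in control replicates 1 to 5. The groups did not overlap, but S1Pless replicate 3 lay close above control replicate 5, and S1Pless replicate 5 stood far above the other 4. The reads behind these values were few, 16 to 73 per S1Pless library and 4 to 15 per control library. F2rl3 averaged 1.77 ± 0.982 CPM in S1Pless hearts and 0.513 ± 0.245 CPM in control hearts (SD, n = 5 each), a log2 fold change of 1.77 ± 0.4 (SE; edgeR adjusted p = 0.0297). The 95% interval of the fold was wide, 1.87 to 6.23. The call was lost without S1Pless replicate 5 (log2 fold change 1.37, adjusted p = 0.0599) and without control replicate 2, 3 or 4 (adjusted p = 0.0628, 0.0705 and 0.0691). Over its 19 alternatives the adjusted p ran from 0.00178 to 0.0705 and the log2 fold change from 1.37 to 2.01.

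F2rl1 (ENSMUSG00000021678) had 1.72, 2.15, 2.32, 1.56 and 2.09 CPM in S1Pless replicates 1 to 5, against 1.78, 0.914, 0.852, 0.871 and 1.23 CPM in control replicates 1 to 5. Control replicate 1 lay within the S1Pless range, and the other 4 control hearts lay below it. The log2 fold change was 0.81 ± 0.24 (SE) with a 95% interval of the fold from 1.23 to 2.5, and edgeR's adjusted p was 0.0794. DESeq2 and limma-voom called the gene (adjusted p = 0.0386 and 0.0314), as did edgeR without control replicate 1 (adjusted p = 0.0282), in a range of 0.0188 to 0.321 over 20 alternatives. F2rl2 (ENSMUSG00000021675) was barely detected, with 3, 1, 3, 4 and 2 reads in S1Pless replicates 1 to 5 and 2, 0, 2, 0 and 0 reads in control replicates 1 to 5. The reads summed to 13 in S1Pless hearts and 4 in control hearts. In the edgeR fit with no filter on low counts, F2rl2 had an unadjusted p of 0.105 and an adjusted p of 0.383 over 14994 genes, so a difference was not detectable at this depth.

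**Figure D2:**
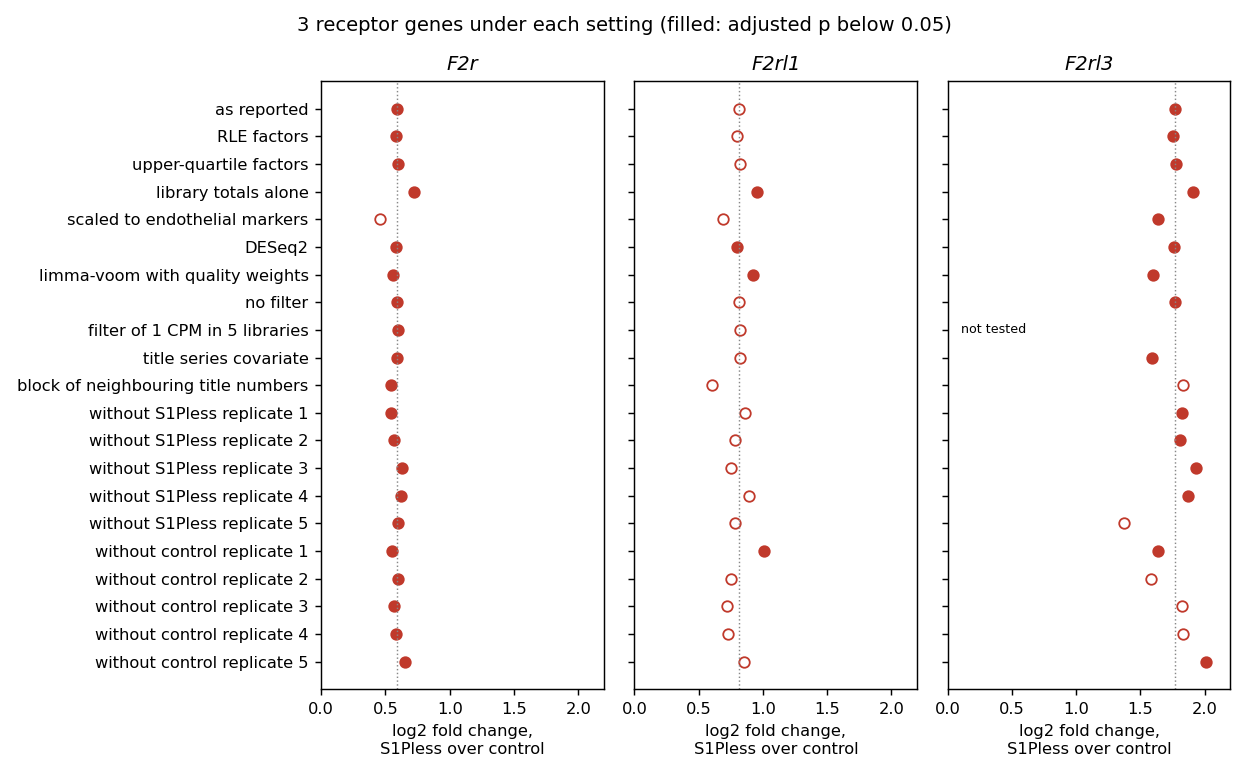
Log2 fold change of S1Pless over control hearts (horizontal axis) for F2r, F2rl1 and F2rl3 as reported and under each alternative setting (vertical axis); filled points passed an adjusted p of 0.05 and the dotted line marks the reported value. F2r stays between 0.46 and 0.72, F2rl1 between 0.6 and 1.01 and F2rl3 between 1.37 and 2.01, and F2rl3 was not tested under the filter of 1 CPM in 5 libraries.

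Levels can be set against each other only per length of transcript, here as CPM per kilobase of annotated exon. In control hearts the order was Thbd (22.1), Tfpi (14.9), F2r (11.5), F3 (8.67), Vwf (4.36), Procr (0.511), F2rl1 (0.412), F2rl3 (0.257) and F2rl2 (0.019 CPM per kilobase). The ranges over the control hearts overlapped between Procr and F2rl1 and between F2rl1 and F2rl3, and between no other neighbours in this order. In S1Pless hearts F2r, at 17.4 ± 1.78 CPM per kilobase (SD, n = 5), stood above Tfpi at 14.5 ± 1.06. The lowest F2r, 15.6, lay barely above the highest Tfpi, 15.4, and this order rests on approximate exon lengths. Before division by length, F2r had 0.649 to 0.831 reads for each Tfpi read in these hearts. F2r supplied 86.7 to 93.3% of the summed receptor level per kilobase in S1Pless hearts and 92.4 to 96.3% in control hearts. F2rl3 supplied 2.73 to 9.09% of it in S1Pless hearts and 0.902 to 2.96% in control hearts. F2r was thus the most abundant receptor transcript per kilobase in both groups, and the sum of the 4 receptors was 17 to 21.5 CPM per kilobase in S1Pless hearts and 11.4 to 14.2 in control hearts.

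The stretches of 250 bases before the RefSeq start sites of F2rl3 and F2r, the genes that passed the test, are shown so that the sequence beside each rising transcript can be read. They are from RefSeq on build GRCm38.p6, an older build than the GRCm39 of the counts, and run 5′ to 3′ on the gene's own strand. F2rl3 lies at chr8:72761409-72761658 on the plus strand and F2r at chr13:95618467-95618716 on the minus strand. Capitals mark matches on either strand to AGGAAGT, the core that ETS factors such as ERG bind, to TGAGTCA, the AP-1 site, and to CACCC, the core read by KLF factors, and no matches of different motifs overlap.
F2rl3: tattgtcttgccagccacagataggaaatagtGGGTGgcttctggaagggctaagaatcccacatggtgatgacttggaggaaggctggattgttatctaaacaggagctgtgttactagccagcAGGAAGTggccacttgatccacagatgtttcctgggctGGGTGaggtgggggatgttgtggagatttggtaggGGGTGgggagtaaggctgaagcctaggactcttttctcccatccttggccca
F2r: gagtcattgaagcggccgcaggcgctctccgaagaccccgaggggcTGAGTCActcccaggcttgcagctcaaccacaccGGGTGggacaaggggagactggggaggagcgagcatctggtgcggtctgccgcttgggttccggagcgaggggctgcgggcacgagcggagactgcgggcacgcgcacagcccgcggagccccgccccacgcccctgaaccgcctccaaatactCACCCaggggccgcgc
The F2rl3 stretch holds 1 AGGAAGT, at position -125 counted back from the start site, no TGAGTCA and 3 CACCC. The F2r stretch holds 1 TGAGTCA, at position -204, no AGGAAGT and 2 CACCC. Of 32851 promoters in the table, 7.69% hold AGGAAGT, 4.46% TGAGTCA and 52% CACCC in the same window. The upstream stretch of F2r is 70.8% G and C and that of F2rl3 52%, against a median of 52.4% over all promoters. Promoters were found for 6 of the 9 members.

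The endothelial genes that turn thrombin towards protein C did not pass the test. Thbd (ENSMUSG00000074743) had 88.4, 79.8, 81.3, 76.1 and 74.1 CPM in S1Pless replicates 1 to 5, against 91.5, 81.9, 87.2, 69.1 and 82.4 CPM in control replicates 1 to 5. Every S1Pless heart lay within the control range. The log2 fold change was -0.04 ± 0.09 (SE), and the 95% interval of the fold, 0.848 to 1.11, excludes a rise of the size seen in F2r. Procr (ENSMUSG00000027611), with 9 to 32 reads per library, had 1.13, 1.2, 1.62, 1.16 and 1.52 CPM in S1Pless replicates 1 to 5, against 1.18, 1.13, 1.44, 0.49 and 0.95 CPM in control replicates 1 to 5. Its groups overlapped widely, and the interval of the fold, 0.857 to 1.89, leaves room for a rise as large as that of F2r (edgeR adjusted p = 0.498).

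The genes that start and restrain clotting did not pass the test. F3 (ENSMUSG00000028128) had 21.8, 29, 25, 19 and 20.1 CPM in S1Pless replicates 1 to 5, against 23.2, 20.5, 20, 25 and 20.9 CPM in control replicates 1 to 5. Tfpi (ENSMUSG00000027082) had 80.3, 80.3, 69.1, 84.2 and 81.2 CPM in S1Pless replicates 1 to 5, against 86.3, 75, 81.6, 84.5 and 78.4 CPM in control replicates 1 to 5. S1Pless replicate 3 was the lowest of all 10 hearts for Tfpi, and S1Pless replicate 2 the highest for F3. The log2 fold changes were 0.07 ± 0.12 for F3 and -0.04 ± 0.08 for Tfpi (SE), with 95% intervals of the fold of 0.88 to 1.25 and 0.863 to 1.1. Vwf (ENSMUSG00000001930), which endothelial cells store in granules and release, had 55.7, 64.6, 80.5, 67.7 and 66.9 CPM in S1Pless replicates 1 to 5, against 74.1, 81.5, 55.1, 72.8 and 66.8 CPM in control replicates 1 to 5. Both groups spanned nearly the same range, and the log2 fold change was -0.06 ± 0.12 (SE; 95% interval of the fold 0.805 to 1.14). The edgeR adjusted p-values of Thbd, Tfpi, F3 and Vwf were 0.83, 0.833, 0.788 and 0.806.

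Within each library, receptor and cofactor reads can be set against each other with no scaling between libraries. F2r had 0.755, 0.769, 0.642, 0.718 and 0.745 reads for each Thbd read in S1Pless replicates 1 to 5, against 0.386, 0.469, 0.422, 0.546 and 0.539 in control replicates 1 to 5. Against Tfpi the ratio was 0.649 to 0.831 in S1Pless hearts and 0.409 to 0.567 in control hearts. Neither ratio overlapped between the groups. These ratios were chosen after the values were seen and carry no test.

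**Figure D3:**
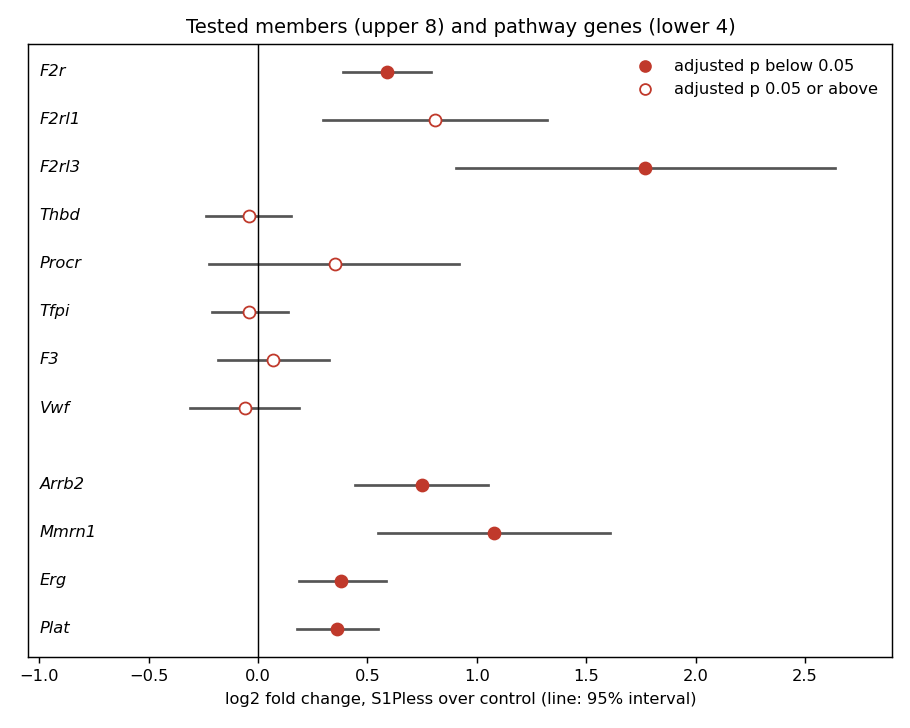
Log2 fold change of S1Pless over control hearts with its 95% interval (horizontal axis) for the 8 members tested, above, and for 4 genes of the wider clotting and signalling lists that passed the test, below; filled points passed an adjusted p of 0.05. F2r and F2rl3 lie above 0, and the points of Thbd, Tfpi, F3 and Vwf lie between -0.06 and 0.07.

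Sample titles carry numbers whose first digits fall into a 38 and a 44 series, and their meaning is not stated. Within the 38 series F2r averaged 60.1 CPM in 3 S1Pless hearts and 37 CPM in 4 control hearts, and within the 44 series 54.9 CPM in 2 S1Pless hearts and 44.4 CPM in the 1 control heart. F2rl3 averaged 1.35 CPM in S1Pless hearts and 0.432 CPM in control hearts of the 38 series, and 2.38 CPM in S1Pless hearts and 0.838 CPM in the control heart of the 44 series. In both series every S1Pless heart lay above the controls for both genes. This order follows from the lack of overlap over all 10 hearts and is no separate result. With the series as a covariate both kept their calls (edgeR adjusted p = 0.0113 for F2r and 0.0359 for F2rl3). With a block for hearts with neighbouring title numbers F2r kept its call (adjusted p = 0.0462) and F2rl3 did not (adjusted p = 0.0649).

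Platelets and macrophages are other cells of the heart's RNA in which these receptors could be read. Of 13 platelet markers, 8 were not analysed here, Gp1bb had 0 reads in every library, and none of the 4 tested passed (edgeR; 1 higher at an unadjusted p below 0.05; 0 by DESeq2 and limma-voom). Summed platelet markers were 14.4, 14.7, 17.2, 11.4 and 21.7 CPM in S1Pless replicates 1 to 5, against 15.5, 12, 11.3, 9.21 and 10.5 CPM in control replicates 1 to 5. The highest of them was Pf4, which encodes platelet factor 4, with 9.75 ± 2.43 CPM in S1Pless hearts and 6.79 ± 1.47 CPM in control hearts (SD, n = 5 each). Pf4 supplied most of the sum on average and was the 1 marker with an unadjusted p below 0.05. Itgb3, Itga2b and Ppbp averaged 3.3, 1.77 and 1.08 CPM in S1Pless hearts and 2.73, 1.5 and 0.702 CPM in control hearts, so the platelet sum mainly follows Pf4. Among the 10 macrophage markers edgeR called 4 higher and 0 lower (10 higher and 0 lower at an unadjusted p below 0.05; 8 and 6 higher and 0 lower by DESeq2 and limma-voom), and their sum was 319, 293, 327, 278 and 595 CPM in S1Pless replicates 1 to 5, against 229, 201, 223, 176 and 191 CPM in control replicates 1 to 5. S1Pless replicate 5 was thus highest in F2rl3, in the platelet sum, which mainly follows Pf4, and in the macrophage sum. S1Pless replicate 1 was highest in F2r. S1Pless replicate 5 was also highest in summed fibroblast (1090 CPM), pericyte (1770 CPM) and mesothelial markers (16.4 CPM), and lowest in cardiomyocyte markers (37900 CPM). Among control hearts, replicate 1 was highest in the platelet and macrophage sums, with 0.329 CPM of F2rl3. Control replicate 5 had the most F2rl3 of the controls, 0.838 CPM. The part of platelets, macrophages or any other cell type in the rise of F2rl3 or F2r was not tested.

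Markers of vessel wall cells and fibroblasts were counted in the same way. Lymphatic endothelial markers had a median log2 fold change of 0.8, and edgeR called 4 of the 7 tested higher and 0 lower, beside 3.4% and 0.316% of all genes. Prox1, listed as a lymphatic marker, had a log2 fold change of -0.34 (edgeR unadjusted p = 0.0369, adjusted p = 0.218). At a mean of 61.9 CPM in S1Pless hearts and 78.2 CPM in control hearts, it had the highest level of the 7. Whether its reads came from lymphatic endothelium was not tested. None of the endothelial (13 tested), venous and endocardial (6), arterial (7) and capillary (5) markers passed edgeR's test, with 5, 2, 2 and 0 higher at an unadjusted p below 0.05, and Pecam1 was the only 1 that DESeq2 and limma-voom called. Their median log2 fold changes were 0.2, 0.19, 0.16 and -0.11, beside -0.01 over all genes tested. The geometric mean of the endothelial markers was 102 ± 7.15 CPM in S1Pless hearts and 93.2 ± 5.16 CPM in control hearts (SD, n = 5 each; two-sided exact permutation p = 0.0556, where 0.00794 is the smallest the design allows; adjusted p = 0.0833). None of the 6 fibroblast and 6 smooth muscle markers passed in edgeR, with 1 higher and 1 lower at an unadjusted p below 0.05, and with medians of 0.14 and -0.21. DESeq2 called 1 fibroblast marker, Col1a1, and limma-voom none. Their part in the rise of F2r was not tested.

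**Figure D4:**
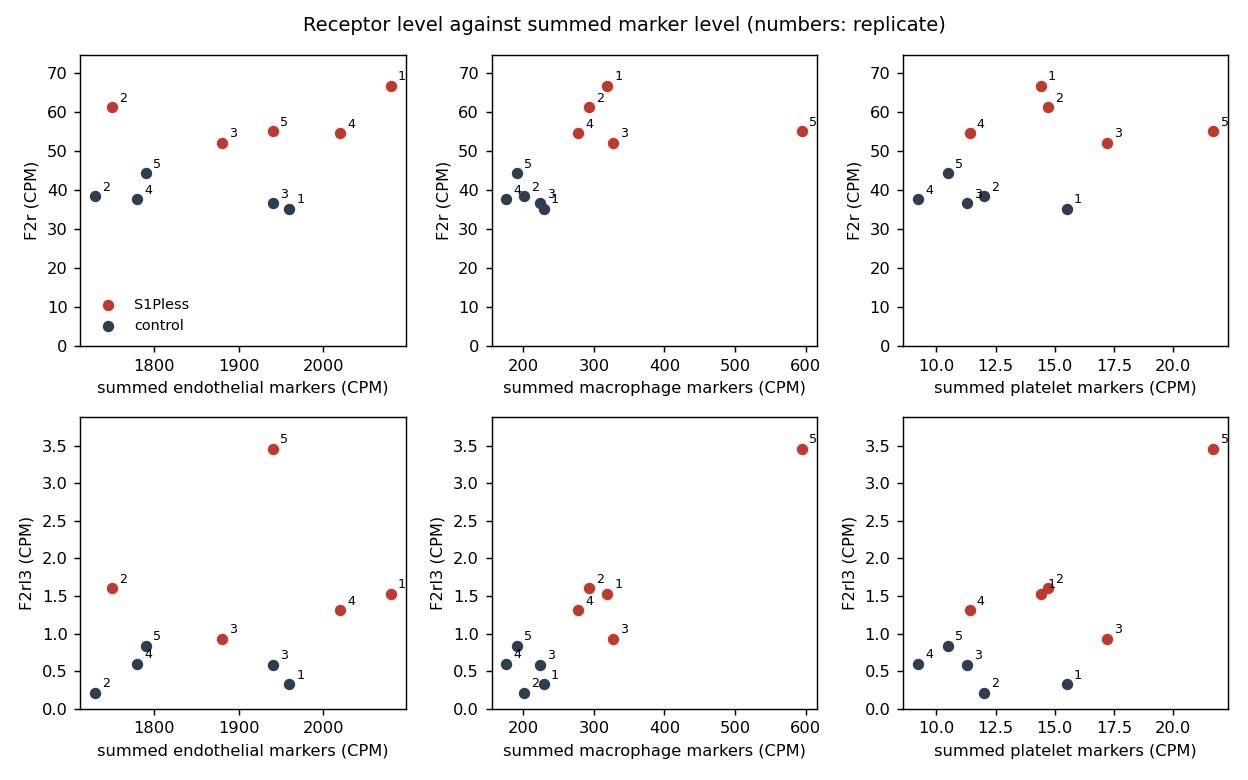
Level of F2r (upper row) and F2rl3 (lower row) in CPM (vertical axes, from 0) against the summed CPM of endothelial, macrophage and platelet markers (horizontal axes, not from 0); each point is a heart, numbered by replicate. S1Pless replicate 5 is alone at the upper right for F2rl3 against macrophage and platelet markers, at 595 and 21.7 CPM, but not for F2r.

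Among the wider genes of clotting, fibrinolysis and receptor signalling, 57 of 74 listed were found and 50 tested. In S1Pless hearts edgeR called 5 of these higher and 0 lower, beside 3.4% and 0.316% of all genes tested. At an unadjusted p below 0.05 edgeR had 17 higher and 0 lower, beside 13% and 6.82%. DESeq2 and limma-voom each called 8 higher and 0 lower. Over all genes DESeq2 called 5.88% higher and 2.03% lower, and limma-voom 3.98% and 0.439%. The median log2 fold change of the wider genes was 0.16, with 38 of 50 above 0. Over all genes tested the median was -0.01, with 6163 of 12992 above 0. Leaving out a heart gave 1 to 6 calls. Arrb2 was called in all 10 of those fits, whereas Plat, Mmrn1 and Erg each lost their call in 6 or 7 of them.

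Most soluble clotting factors are made in the liver. Of 16 listed factors 9 were not analysed here, 4 of the 7 found had too few reads to be tested, and none of the 3 tested passed in edgeR or limma-voom (1 higher at an unadjusted p below 0.05 in each). F13a1, the fibrin cross-linking subunit that macrophages also make, had 66.2 ± 25.7 CPM in S1Pless hearts and 40.8 ± 4.12 CPM in control hearts (SD, n = 5 each; log2 fold change 0.7, edgeR adjusted p = 0.0726), and DESeq2 called it. S1Pless replicate 5, the heart with the highest macrophage markers, had 109 CPM of F13a1, and the part of macrophages in it was not tested. F8, the clotting factor that endothelial cells make, had a log2 fold change of 0.28 (adjusted p = 0.42). Among 4 tested inhibitors none passed in edgeR, DESeq2 or limma-voom, with 1, 1 and 2 higher at an unadjusted p below 0.05. Pros1, protein S, the cofactor of activated protein C, had 40.9 ± 6.13 CPM in S1Pless hearts and 32.5 ± 3.48 CPM in control hearts (adjusted p = 0.109), and Anxa5, annexin A5, had a log2 fold change of 0.13 (adjusted p = 0.461).

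Plat rose among the 8 fibrinolysis genes tested. It was the 1 gene of this list that edgeR called, with 5 higher and 0 lower at an unadjusted p below 0.05. DESeq2 also called Plgrkt, a plasminogen receptor, and limma-voom called Plgrkt and S100a10, an annexin A2 partner (edgeR adjusted p = 0.0675 and 0.117). Plat encodes tissue plasminogen activator, which endothelial cells release to dissolve fibrin, and it had 29.9 ± 2.62 CPM in S1Pless hearts and 23.4 ± 1.8 CPM in control hearts (SD, n = 5 each; 1.28-fold, edgeR adjusted p = 0.0364). The groups did not overlap, with S1Pless hearts from 25.9 and control hearts up to 25.6 CPM. The call was lost without S1Pless replicate 1, 4 or 5 or control replicate 1, 3, 4 or 5 (adjusted p from 0.0515 to 0.106), with the title series covariate (0.0592), with the block of neighbouring title numbers (0.184) and relative to endothelial markers (0.178), in a range of 0.00806 to 0.184 over the alternatives.

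Mmrn1 rose among the genes listed for von Willebrand factor storage and cleavage. It encodes multimerin of platelet and endothelial granules, is also a marker of lymphatic endothelium, and had 19.5 ± 5.72 CPM in S1Pless hearts and 9.27 ± 3.61 CPM in control hearts (SD, n = 5 each; 2.11-fold, edgeR adjusted p = 0.0303). Of the 7 lymphatic markers tested, Mmrn1 included, edgeR called 4 higher and 0 lower. At an unadjusted p below 0.05 edgeR had 5 higher and 1 lower, and DESeq2 and limma-voom called 0 lower. The marker sum was 161 to 209 CPM in S1Pless hearts and 130 to 171 CPM in control hearts. Prox1 weighed most in that sum, at a mean of 61.9 CPM in S1Pless hearts and 78.2 CPM in control hearts. The part of the lymphatic markers in the rise of Mmrn1 was not tested. Mmrn1 itself overlapped between the groups, with S1Pless hearts from 13.5 and control hearts up to 15.1 CPM. Mmrn1 lost its call without S1Pless replicate 1 or 5 or control replicate 2, 3, 4 or 5 (adjusted p from 0.0586 to 0.0851) and relative to endothelial markers (0.0921), in a range of 0.0013 to 0.0921 over the alternatives.

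Of 14 genes that couple the receptors to the cell interior, edgeR, DESeq2 and limma-voom each called 1 higher, Arrb2, and 0 lower. At an unadjusted p below 0.05 edgeR had 4 higher and 0 lower, beside 13% and 6.82% of all genes tested. Arrb2 encodes beta-arrestin 2, which binds activated receptors of this class, and it had 22.2 ± 5.39 CPM in S1Pless hearts and 13.3 ± 1 CPM in control hearts (SD, n = 5 each; 1.68-fold, edgeR adjusted p = 0.0162). The groups did not overlap, with S1Pless hearts from 17.1 and control hearts up to 14.6 CPM. The call was lost in 1 of 20 alternatives, the block of neighbouring title numbers (adjusted p = 0.0921, in a range of 0.000257 to 0.0921). Macrophages express Arrb2 strongly, and the macrophage marker sums given above did not overlap between the groups either; their part in the rise of Arrb2 was not tested. The G protein genes Gnaq and Gna13 had log2 fold changes of 0.07 ± 0.08 and 0.2 ± 0.11 (SE), and Rhoa, the GTPase downstream of G12 and G13, 0.08 ± 0.08, and none of these passed (adjusted p = 0.695, 0.324 and 0.641). Arrb1, Arhgef1 and Gnai2 were higher at an unadjusted p below 0.05 (log2 fold changes 0.39, 0.24 and 0.21, edgeR adjusted p = 0.106, 0.157 and 0.206). Gna11 and Gna12 had log2 fold changes of -0.05 and -0.17. Over the 14 genes the median was 0.07, with 10 above 0.

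Genes by which endothelium holds platelets at rest, and the factors known to act on Thbd or F3, gave 1 call by edgeR among 13 tested. DESeq2 called 2, Erg and Nfkb1 (edgeR adjusted p = 0.0905 for Nfkb1), and limma-voom 1, Erg. None of the 5 platelet-inhibiting genes passed in edgeR, DESeq2 or limma-voom (1 higher at an unadjusted p below 0.05 in each), and Nos3, endothelial nitric oxide synthase, had 58 ± 5.72 CPM in S1Pless hearts and 50.4 ± 3.15 CPM in control hearts (adjusted p = 0.211). Ptgs1, cyclooxygenase 1, had a log2 fold change of 0.18 (adjusted p = 0.545). Erg, an endothelial ETS factor, had 52 ± 5.06 CPM in S1Pless hearts and 39.9 ± 3.47 CPM in control hearts (1.31-fold, edgeR adjusted p = 0.0332), and relative to endothelial markers its adjusted p was 0.149, in a range of 0.00488 to 0.149 over the alternatives. With the block of neighbouring title numbers it was 0.0777. The call was also lost in 7 of the 10 fits with a heart left out, those without S1Pless replicate 1, 2 or 5 or control replicate 2, 3, 4 or 5 (adjusted p from 0.0624 to 0.0953). Klf2 and Klf4, which raise Thbd in flow-exposed endothelium, had log2 fold changes of 0.14 ± 0.14 and 0.19 ± 0.11 (SE; adjusted p = 0.605 and 0.359).

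The genes whose pattern over the 10 hearts was most like that of F2rl3 were sought among the 12341 other tested genes whose mean reached 1 CPM. Likeness was the root mean square difference of log2 CPM after each gene was centred on its own mean, with a median of 0.99 over these genes. The 5 nearest were Cd109, a surface protein that binds TGF-beta (0.35), Gm45705 (0.38), Sfrp2, a secreted Wnt antagonist (0.4), Ccn5, a matricellular protein (0.42) and Adgre4, an adhesion receptor of mouse macrophages (0.43). Cd109 had 5.03 CPM in S1Pless hearts and 1.77 CPM in control hearts on average, and Adgre4 3.3 CPM in S1Pless hearts and 0.964 CPM in control hearts. All 5 had S1Pless hearts above control hearts without overlap, a pattern that likeness to F2rl3 favours.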

How the data were processed

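Per the labels' protocols, RNA was extracted from heart tissue with TRIzol and RNeasy kits and sequenced as Illumina stranded mRNA libraries. The authors deposited raw counts per Ensembl gene, 1 column per heart. The submitters' processing notes name STAR 2.7.8a, featureCounts 2.0.1 and build GRCm39. The annotation release, the strand setting and the handling of multimapped reads are not stated there, so counts of overlapping or near-identical genes are uncertain. Symbols came from a table of gene names, in which 20 identifiers had no entry. Exon lengths came from GENCODE M21, made for an older build, so levels per kilobase are approximate.

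Groups follow the genotype labels. Replicates were numbered by accession, and the labels pair no hearts. Where nothing says how hearts were handled, p-values measure only the spread between these samples. Hearts of a group differed beyond sampling noise in all 20 pairs (chi-square over its degrees of freedom of at least 10.4).

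Counts were tested with edgeR 4.0.16 in R 4.3.3 (filterByExpr, minimum count 10; TMM; robust glmQLFit and glmQLFTest, two-sided). SE is the log2 fold change over the square root of F, and 95% intervals use the t distribution. Alternatives were RLE and upper-quartile factors, library totals alone, scaling to endothelial markers, DESeq2 1.42.0, limma-voom with quality weights (limma 3.58.1), leaving the low-count filter out, requiring 1 CPM in 5 libraries, a title series covariate, a block of neighbouring title numbers, and leaving out each heart.

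The members and lists were chosen with earlier results of these data known. Named genes are the 9 members, Sphk1 and Sphk2, the called genes of each list or else the 2 with the smallest p-values, and the 5 genes most like F2rl3; a called gene of these lists is not reported here. Gnaq, Gna11, Gna12, Gna13, Gnai2, Rhoa, Arrb1, Arhgef1, Klf2, Klf4, Nfkb1, Plgrkt, S100a10 and the 3 motifs were chosen after values were seen. So were the markers Pf4, Itgb3, Itga2b, Ppbp, Gp1bb, Pecam1, Prox1, Col1a1 and Pln.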

Additional observations from a re-analysis of the deposited data

Results flagged for a closer look

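In 18 groups of 5 hearts (9 genes in 2 groups), 2 held a heart whose gap to its nearest neighbour exceeded 0.71 of the group's range; chance flags about 1 in 20 such groups. F2rl3 in S1Pless replicate 5, at 3.46 CPM, stood above the other 4 S1Pless hearts, which had 0.929 to 1.6 CPM. Without that heart the log2 fold change was 1.37 and edgeR's adjusted p was 0.0599. Tfpi in S1Pless replicate 3, at 69.1 CPM, stood below the other 4, which had 80.3 to 84.2 CPM, and without it the log2 fold change of Tfpi was 0.01. That library had the lowest total count of all 10, 16354071.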

How the results depend on the processing

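Of the 20 alternatives, none called a member or a wider clotting gene lower, by edgeR, DESeq2 or limma-voom. The number of members called higher was 1 in place of 2 relative to endothelial markers (F2rl3), with the filter of 1 CPM in 5 libraries, which left F2rl3 untested, and with the block of neighbouring title numbers (F2r in both), and 1 to 3 over the fits with a heart left out. F2rl1 was added with library totals alone (adjusted p = 0.0188), DESeq2, limma-voom and without control replicate 1. The wider genes called higher numbered 16 with library totals alone, 8 with DESeq2, 8 with limma-voom, 1 relative to endothelial markers, 1 with the block, and 1 to 6 with a heart left out. All genes called numbered 1433, 1028, 255 and 88 with library totals alone, DESeq2, endothelial scaling and the block, against 483, and 126 to 589 with a heart left out. The split of higher to lower calls was 442 to 41, but 764 to 264 with DESeq2 and 180 to 75 with endothelial scaling. Library totals alone shifted the median log2 fold change of all genes by 0.136, and endothelial scaling by -0.129. Small log2 fold changes of genes that passed nowhere changed sign: Thbd to 0.1 with library totals alone and 0.01 with limma-voom, Tfpi to 0.1 with library totals alone and 0.01 without S1Pless replicate 3 (-0.06 to 0.01 over the fits with a heart left out), F3 to -0.05 with endothelial scaling and -0.03 without S1Pless replicate 2 (-0.03 to 0.14), and Vwf to 0.07 with library totals alone and 0 without control replicate 2 (-0.14 to 0). The cause was not tested. No paired analysis was possible because the labels pair no hearts; the block rests on title numbers of unstated meaning, and control replicates 3 and 4 share a level with no S1Pless heart. Depth limits F2rl2. F2rl3, whose interval was wide, had 4 to 15 reads per control library and a biological coefficient of variation of 36.4%.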

Other observations

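Markers of further cell types were tested beside the members. Wt1, a transcription factor of the epicardium and the only listed mesothelial marker with enough reads, was called higher by edgeR, DESeq2 and limma-voom. Which cells its reads came from was not tested. The summed mesothelial markers were 9.79 to 16.4 CPM in S1Pless hearts and 6.81 to 9.6 CPM in control hearts. Most of that sum was Wt1 itself, at a mean of 11.4 CPM in S1Pless hearts and 7.5 CPM in control hearts, so the sum adds little to its call. None of 5 erythroid, 2 neutrophil, 1 mast cell and 6 pericyte markers passed in any of these tools, and at an unadjusted p below 0.05 edgeR gave 0, 0, 0 and 1 higher and 0 lower. Summed markers of mast cells, whose tryptase can cut PAR2, were 0.55 to 1.94 CPM in S1Pless hearts and 1.56 to 4.84 CPM in control hearts. These sums lie near the floor. Each marker had 0 to 33 reads per library, and only 1 of the 5 listed had enough reads to be tested.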
